A study of Mus musculus with 75 samples.

Results

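The 231 immunoglobulin genes comprise all 13 rows annotated as constant genes and all 218 rows annotated as variable (V) genes, out of 55536 genes counted in mouse liver RNA. Membership follows from the annotated gene class and uses no measured value. Pseudogenes and the diversity and joining segments were not members. The livers came from male wild-type C57Bl/6 mice. Dams of the exposed mice drank tributyltin (TBT), an organotin compound, at 0.5 mg/kg per day (3.07 µM) until the pups were weaned, and the other dams received the vehicle. The youngest groups, sampled at 3 weeks, were 8 vehicle and 8 TBT libraries. Exposed mice of 5 months were labelled by their risk of liver tumors, with 16 libraries of low risk and 10 of high risk beside 8 of vehicle. The oldest mice, of 10 months, gave 6 libraries of vehicle liver, 5 of low-risk exposed liver, 6 of uninvolved liver and 7 of tumors, where the uninvolved livers and the tumors came from exposed high-risk mice. How the 5-month mice were given their risk is not in the labels.

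Total counts ran from 2.83 to 45.4 M per library, and immunoglobulin genes took a small part of them, so most single V genes rested on a few counts. A pair of 3-week vehicle libraries of mouse 3 were summed, and so were the uninvolved libraries of mice 3 and 6, whose log2 values correlated at 0.9986 when no other pair of that group passed 0.9877. This left 7 and 5 samples in those groups. The library labelled 3-week TBT 4 went against its male label, with 348 CPM (counts per M counts) of Xist and only 7.08 CPM summed over Y-linked genes; without it, the 3-week comparison called no gene of these classes either. Sequencing batch 2 was made up of 5-month libraries alone: 10 of low risk, 7 of high risk and a single vehicle. Ages were compared within batch 1. In 5-month low-risk mouse 2, the duct marker Epcam stood at 100.3 CPM against 0.648 to 2.86 CPM in the rest of its group, and this library stood apart for Igha as well. The part of duct cells in that value was not tested. A further vehicle library of 10 months was labelled as a tumor and entered no comparison apart from alternative fits. It was technically deviating, with 14.06% mitochondrial counts. Its total was 11.5 M counts, against 26.2 to 31.0 M in the other vehicles of that age. In whole tissue, fewer cells of a type and less RNA per cell cannot be told apart. P-values measure the spread between the sampled mice. The exposure was given to dams, but the sample labels used here name no litter. Pups of a dam were therefore counted as separate mice, and a spread between litters was not measured.

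An antibody is built from paired heavy and light chains. A B cell joins V, diversity and joining segments into a variable exon and splices it to a constant gene, which sets the class of the antibody. Naive B cells make IgM and IgD from Ighm and Ighd, and class switching then replaces these with IgG (Ighg1, Ighg2b, Ighg2c, Ighg3), IgE (Ighe) or IgA (Igha). Light chains carry kappa (Igkc) or lambda (Iglc1, Iglc2, Iglc3, Iglc4) constant regions. Plasma cells secrete antibody and hold far more of this RNA than resting B cells. Polymeric IgA and IgM carry the joining chain, encoded by Jchain, and the receptor encoded by Pigr carries them across epithelia.

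A heavy and a kappa V gene, among the 4 V genes with the most counts, show what a V row measures. Ighv6-3 lies at chr12:114391712-114392169 and Igkv5-39 at chr6:69900424-69900977, both on the minus strand of GRCm38 (GENCODE release M21, from which every sequence was read, 5′ to 3′). The last 240 coding bases of each are printed, with the last in-frame cysteine codon, where the germline part of the antigen-binding loop begins, in capitals. The germline row ends 8 bases from the start of that codon in Ighv6-3 and 26 bases from it in Igkv5-39. The rest of the loop is made by joining and is not in any V row, so counts per V gene do not tell clones apart.
Ighv6-3: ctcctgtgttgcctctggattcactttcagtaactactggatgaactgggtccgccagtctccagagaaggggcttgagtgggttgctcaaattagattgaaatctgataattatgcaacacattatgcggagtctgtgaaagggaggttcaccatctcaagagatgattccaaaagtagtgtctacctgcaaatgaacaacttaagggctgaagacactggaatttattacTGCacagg
Igkv5-39: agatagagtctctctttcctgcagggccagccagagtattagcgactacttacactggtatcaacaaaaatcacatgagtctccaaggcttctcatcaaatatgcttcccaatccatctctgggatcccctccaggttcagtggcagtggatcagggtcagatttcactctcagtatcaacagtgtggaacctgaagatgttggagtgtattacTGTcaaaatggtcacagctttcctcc

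Close relatives limit how well reads can be assigned to single genes. Of the 218 V genes, 99 had another V gene at 95% identity or more over the coding part, and the median identity to the nearest relative was 94.6%. Iglv1 (chr16:19085017-19085500) and Iglv2 (chr16:19260401-19260859) were 96.9% identical over their coding parts, and 6 of their last 240 bases, in capitals, differ. Igkv3-2 (chr6:70698449-70699067) and Igkv3-4 (chr6:70671788-70672377), on the plus strand, were 91.4% identical, with 25 differing bases in the stretch shown.
Iglv1: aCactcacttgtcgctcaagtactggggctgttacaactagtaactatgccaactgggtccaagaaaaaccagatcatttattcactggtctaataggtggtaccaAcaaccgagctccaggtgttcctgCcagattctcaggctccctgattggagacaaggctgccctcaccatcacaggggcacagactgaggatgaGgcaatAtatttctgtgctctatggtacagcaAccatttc
Iglv2: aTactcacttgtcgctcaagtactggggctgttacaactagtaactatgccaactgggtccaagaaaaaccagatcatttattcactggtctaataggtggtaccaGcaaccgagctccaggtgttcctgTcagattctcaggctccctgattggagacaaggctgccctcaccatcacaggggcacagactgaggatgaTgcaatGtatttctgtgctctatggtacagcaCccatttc
Igkv3-2: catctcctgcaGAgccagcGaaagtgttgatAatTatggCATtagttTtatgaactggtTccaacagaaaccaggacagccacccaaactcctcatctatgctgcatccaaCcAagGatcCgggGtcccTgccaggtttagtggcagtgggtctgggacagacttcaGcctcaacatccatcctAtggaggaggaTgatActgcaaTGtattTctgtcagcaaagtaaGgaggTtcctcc
Igkv3-4: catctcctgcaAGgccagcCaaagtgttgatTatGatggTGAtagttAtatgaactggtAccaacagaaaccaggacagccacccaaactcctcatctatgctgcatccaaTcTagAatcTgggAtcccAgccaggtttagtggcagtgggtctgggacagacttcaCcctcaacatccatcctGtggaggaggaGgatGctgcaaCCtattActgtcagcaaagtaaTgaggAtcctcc
The constant genes have the same limit. Ighg2b (chr12:113302965-113307933) and Ighg2c (chr12:113285325-113288932), which encode IgG subclasses, were 87.8% identical, and 15 of their first 150 coding bases differ. Iglc2 (chr16:19198396-19200351) and Iglc3 (chr16:19065230-19065681) were 96.2% identical, with 7 differing bases among the last 240. Values of Ighg2b against Ighg2c and of Iglc2 against Iglc3 are therefore uncertain where reads fell in shared stretches.
Ighg2b: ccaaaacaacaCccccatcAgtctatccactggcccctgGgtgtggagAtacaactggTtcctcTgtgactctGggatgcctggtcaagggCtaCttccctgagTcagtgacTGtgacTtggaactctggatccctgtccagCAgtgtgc
Ighg2c: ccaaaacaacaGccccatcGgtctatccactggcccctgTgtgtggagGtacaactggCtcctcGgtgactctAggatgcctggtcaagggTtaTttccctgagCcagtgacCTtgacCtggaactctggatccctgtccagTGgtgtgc
Iglc2: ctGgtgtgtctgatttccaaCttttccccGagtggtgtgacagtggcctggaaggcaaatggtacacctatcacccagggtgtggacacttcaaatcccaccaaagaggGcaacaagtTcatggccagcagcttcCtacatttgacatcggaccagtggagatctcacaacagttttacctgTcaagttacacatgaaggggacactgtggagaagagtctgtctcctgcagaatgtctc
Iglc3: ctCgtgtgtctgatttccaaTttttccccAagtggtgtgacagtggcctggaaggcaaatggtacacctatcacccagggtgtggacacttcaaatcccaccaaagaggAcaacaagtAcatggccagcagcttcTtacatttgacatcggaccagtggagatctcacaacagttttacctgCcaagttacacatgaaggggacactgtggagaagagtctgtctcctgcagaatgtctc

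Ighm, Igkc and Igha held most of the constant-gene counts. Over all libraries Ighm (chr12:113418558-113422730) had 49092 counts, Igkc (chr6:70726435-70726966) 29492 and Igha (chr12:113254830-113260236) 18864. Ighg2b had 4140 counts, Ighg2c 3302 and Ighd (chr12:113406604-113416324) 2350. The lambda genes Iglc1, Iglc2 and Iglc3 had 1446, 866 and 809. Ighg1 (chr12:113325240-113330523) had 950 counts and Ighg3 (chr12:113356224-113361232) 274. Ighe (chr12:113269260-113273248) was counted 35 times in 16 libraries and Iglc4 (chr16:19194999-19195312) 17 times in 8 libraries, and neither had enough counts to be tested in any comparison. The order of genes depended on the group: per kb of exon, median Ighm was 8.57 CPM per kb in 3-week vehicles against 9.96 for Igkc and 0.0205 for Igha, while 5-month high-risk livers had 11.7 for Ighm, 43.0 for Igkc and 7.66 for Igha.

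**Figure D1:**
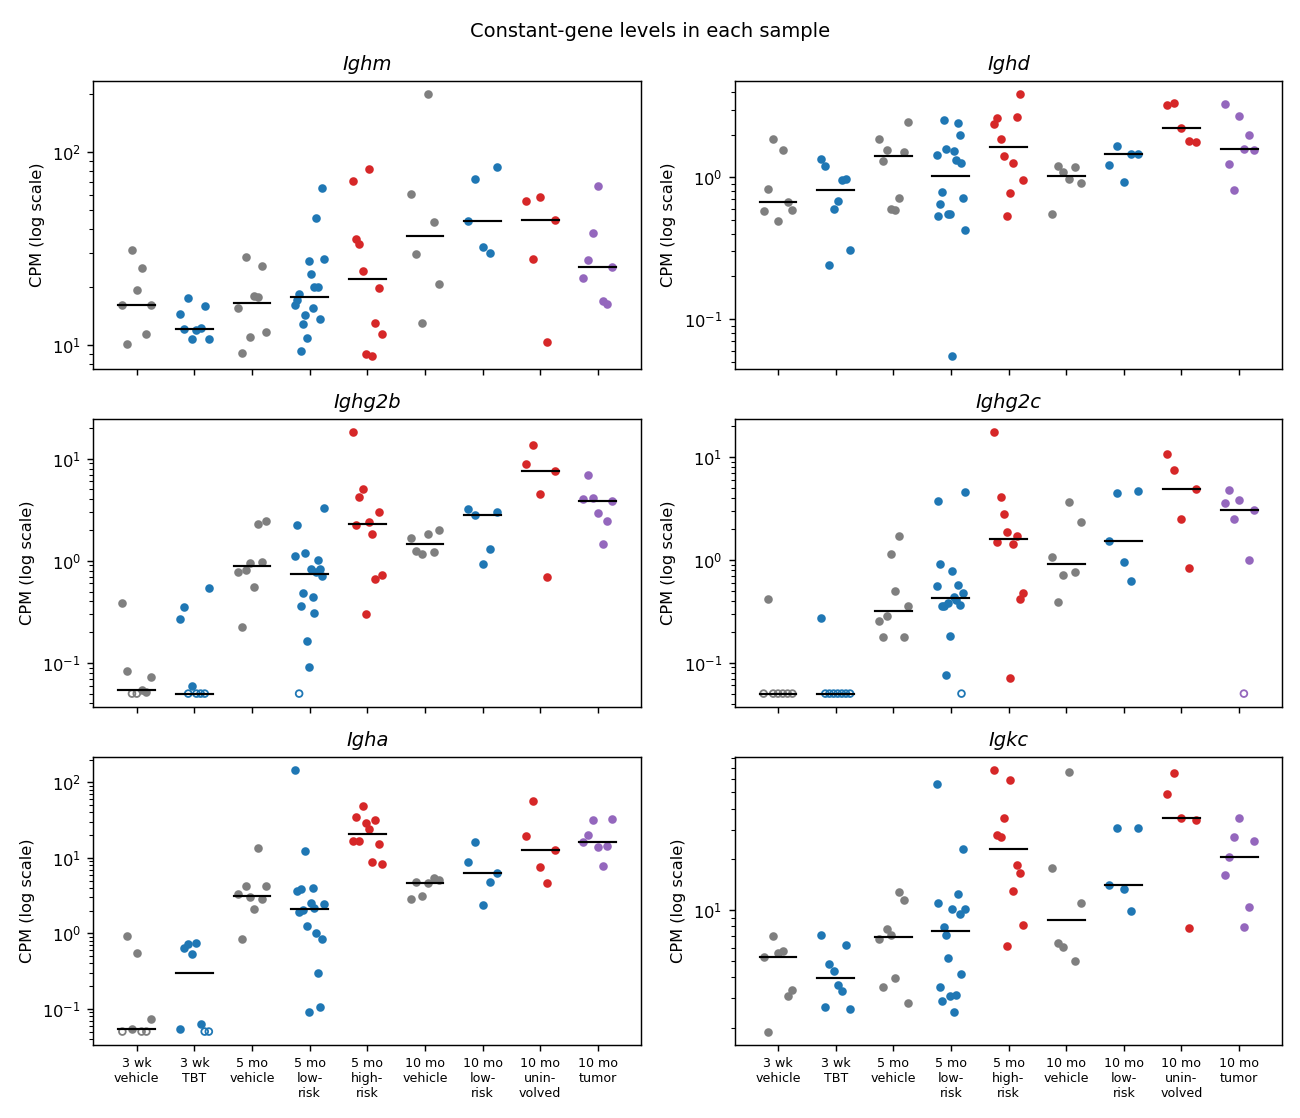
Levels of 6 constant genes in every sample, in CPM on a log axis, by age and group. Black bars are group medians, and open circles are samples under 0.05 CPM drawn at 0.05. Igha and Ighg2b were near the bottom of the axis at 3 weeks, and the 10 high-risk livers of 5 months lay between 8.29 and 48.2 CPM of Igha.

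Between 3 weeks and 5 months, vehicle livers gained RNA of switched classes, while Ighm did not pass the test. Igha ran from 0 to 0.912 CPM at 3 weeks, with a median of 0.0548, and from 0.852 to 13.4 CPM at 5 months, with a median of 3.15. In 6 of the 7 younger samples it was lower than in any 5-month sample. Ighg2b ran from 0 to 0.383 CPM with a median of 0.0541, then from 0.224 to 2.47 CPM with a median of 0.883. Ighg2c was at 0 in 6 of 7 samples at 3 weeks, and at 5 months it ran from 0.178 to 1.69 CPM. All 3 rose in the comparison of 7 batch 1 samples per age: Igha by 4.53 on the log2 scale (standard error, SE, 0.70), Ighg2b by 3.64 (SE 0.61) and Ighg2c by 3.76 (SE 0.92), the last value resting on 3-week mouse 2, the one sample of that age with counts of Ighg2c. Without it all 3-week samples were at 0, and the fitted value of 6.86 then depends on the prior count and is no bound. Their adjusted p-values were 5.62e-05, 0.000147 and 0.00446 by edgeR's quasi-likelihood test with Benjamini-Hochberg adjustment over all genes. These were 3 of 7 constant genes tested, where 11.9% of all genes tested were called higher. Ighm had a log2 difference of -0.0048 (SE 0.47, adjusted p = 0.998), with medians of 16.2 and 16.6 CPM, and Igkc one of 0.68 (SE 0.52, adjusted p = 0.383). Ighd (0.55) and Iglc1 (-0.41) were not called either. In the 5-month vehicles, mouse 6 had the highest Igha, 13.4 CPM, and also the highest Gpnmb (a macrophage gene) of its group at 92.96 CPM, whose part in the result was not tested.

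From 5 to 10 months the vehicle livers gained IgM RNA. Ighm ran from 9.10 to 28.5 CPM with a median of 16.6 at 5 months, and from 13.04 to 200.4 CPM with a median of 36.7 at 10 months. The ranges overlapped, and mouse 5 was far above the other 10-month vehicles. Ighm rose by 1.83 on the log2 scale (SE 0.49, adjusted p = 0.0185, edgeR), the only one of 7 constant genes called, where 6.68% of all genes were called higher. Without mouse 5 the difference was 0.96 with an adjusted p of 0.0744, and with no filter on low counts the adjusted p was 0.0568 (edgeR). Igkc was 1.44 higher (SE 0.51, adjusted p = 0.0649), but 0.44 without mouse 5 (adjusted p = 0.418) and 1.64 without mouse 6 of 10 months (adjusted p = 0.0427, edgeR). Igha was 0.06 lower (log2 difference -0.06, SE 0.53). In low-risk livers of batch 1, Ighm was 1.63 higher at 10 months than at 5 months (SE 0.27, 5 against 6 mice) and the groups did not overlap, as for 1.15% of all genes in that direction. Its p of 4e-05 gave an adjusted p of 0.188, and edgeR called 0 of 14654 genes in that comparison, with 7.66% at an unadjusted p under 0.05. DESeq2 gave Ighm an adjusted p of 0.000137 there.

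At 3 weeks, no immunoglobulin gene passed the test between TBT and vehicle livers, and edgeR called 0 of 14050 genes (3.37% had an unadjusted p under 0.05). Ighm, Igkc and Ighd had enough counts to be tested. Ighm ran from 10.7 to 17.6 CPM in the 8 exposed livers, with a median of 12.1, and from 10.1 to 31.2 CPM in 7 vehicles, with a median of 16.2. Every exposed liver was below the vehicle mean, but the ranges overlapped. The log2 difference of Ighm was -0.45 (SE 0.20, p = 0.0368, adjusted p = 0.999, edgeR), of Igkc -0.05 and of Ighd -0.23. None of 13 mature B cell genes tested passed, and 2 had a log2 difference above 0 (Cd22 0.18, Cd37 0.21). The smallest p among them was that of the surface gene Ms4a1, which was at 1.0003 ± 0.306 CPM (SD, n = 8) in exposed livers and 2.33 ± 0.741 CPM (SD, n = 7) in vehicles. Its log2 difference was -1.17 (SE 0.24), with p = 9.344e-05 and an adjusted p of 0.999 by edgeR. Of 4 neutrophil genes, none of which passed, S100a8, S100a9 and Ngp had unadjusted p of 0.00769 to 0.014 (log2 differences -1.88, -1.96 and -2.97). Their part in these differences was not tested.

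At 5 months, high-risk livers had more IgA, IgG2 and kappa RNA than low-risk livers or vehicles, though not every class passed both tests, and Ighm passed neither. Igha ran from 8.29 to 48.2 CPM in 10 high-risk livers, with a median of 20.4. It ran from 0.0911 to 145 CPM in 16 low-risk livers, with a median of 2.08, and from 0.852 to 13.4 CPM in 8 vehicles, with a median of 3.15. In 14 of 16 low-risk livers and 7 of 8 vehicles, Igha was below every high-risk liver. The exceptions were low-risk mice 2 (145 CPM) and 8 (12.5 CPM) and vehicle mouse 6 (13.4 CPM). Against vehicles, Igha rose by 3.61 on the log2 scale (SE 1.06, adjusted p = 0.0196, edgeR), and 10 of 10 high-risk livers were above the vehicle mean. A fit of the 2 groups alone gave 2.11 (SE 0.54, adjusted p = 0.0235), a fit with no batch covariate 2.15 (adjusted p = 0.124), and one with no filter on low counts an adjusted p of 0.0715. Against low-risk livers Igha was 1.93 higher (SE 0.79) but missed the threshold, with an adjusted p of 0.0522. Without low-risk mouse 2, whose Epcam stood apart, that difference was 2.84 (SE 0.47, adjusted p = 1.869e-05, edgeR).

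Igkc, the kappa chain shared by all classes, ran from 6.13 to 67.6 CPM in high-risk livers, with a median of 22.9. Its medians were 7.48 CPM in low-risk livers (2.48 to 56.0) and 6.92 CPM in vehicles (2.83 to 12.9). The groups overlapped, and 8 of 10 high-risk livers were above the highest vehicle. Igkc rose by 1.19 against low-risk (SE 0.45, adjusted p = 0.0377) and by 1.79 against vehicle (SE 0.60, adjusted p = 0.0396, edgeR). Ighg2b ran from 0.303 to 18.3 CPM in high-risk livers (median 2.32), from 0 to 3.28 CPM in low-risk livers (median 0.749) and from 0.224 to 2.47 CPM in vehicles (median 0.883). High-risk mouse 1 was highest for both Ighg2b and Ighg2c, at 18.3 and 17.6 CPM. Ighg2b rose by 1.89 (SE 0.53, adjusted p = 0.00466) and Ighg2c by 1.71 (SE 0.64, adjusted p = 0.0336) against low-risk livers. Against vehicles they differed by 1.44 (adjusted p = 0.177) and 2.37 (adjusted p = 0.0725), and Ighg2c by 1.52 without high-risk mouse 1 (adjusted p = 0.143). Without high-risk mouse 1, Ighg2b was 1.11 higher than in low-risk livers (adjusted p = 0.061), Ighg2c 0.57 and Igkc 0.91 (adjusted p = 0.097, edgeR), so all 3 calls were lost. The Igkc call against low-risk was also lost without high-risk mouse 10 or 13 or low-risk mouse 8, 11, 14, 18, 19 or 23 (log2 differences of 1.01 to 1.14, adjusted p of 0.0513 to 0.0801), and that against vehicle without high-risk mouse 1 or 13 or vehicle mouse 1, 2, 3, 4 or 5 (1.52 to 1.81, adjusted p of 0.0524 to 0.0789). The Ighg2c call was lost without high-risk mouse 9 (1.69, adjusted p = 0.0537) and in a fit of the 2 groups (adjusted p = 0.0509). Igkc against vehicle was 1.37 in such a fit (adjusted p = 0.0851), and with no filter on low counts Igkc and Ighg2c had adjusted p of 0.0844 to 0.143 in the comparisons that called them.

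Ighm ran from 8.82 to 82.0 CPM in high-risk livers with a median of 22.02, against medians of 17.8 and 16.6 CPM in low-risk livers and vehicles. Its log2 difference was 0.16 (SE 0.34, adjusted p = 0.749) against low-risk and 0.16 (SE 0.44, adjusted p = 0.842) against vehicle by edgeR. Ighd, the other class of naive cells, differed by 0.40 (SE 0.38, adjusted p = 0.421) and 0.11 (SE 0.49). Ighg1 was not called in either comparison. In 8 of 16 low-risk livers it was below every high-risk liver, and 0 of 10 high-risk livers were above every low-risk liver. The lambda genes Iglc1 and Iglc2 were 0.63 and 0.62 above low-risk, neither called. Against vehicle Iglc2 was 1.44 higher, also not called, and 7 of 10 high-risk livers were above every vehicle. For Iglc1 this held in 1 of 10. In all, 3 of 9 constant genes tested were called higher against low-risk, where 20.3% of all genes were called higher, with a median log2 difference of 1.10 over the 9 and -0.01 over all genes. Against vehicle, 2 of 9 were called higher, where 8.47% of all genes were. Between low-risk and vehicle livers edgeR called 0 of 14773 genes, 6.32% having an unadjusted p under 0.05, and Igha had a log2 difference of 1.68 (SE 0.86, adjusted p = 0.789).

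The 5-month differences were uneven between sequencing batches. Within batch 2, with 7 high-risk and 10 low-risk livers, Igha was 2.99 higher (adjusted p = 0.00281), Igkc 1.63 (adjusted p = 0.0350) and Ighg2b 2.10 (adjusted p = 0.0390, edgeR). Within batch 1, with 3 high-risk and 6 low-risk livers, mouse 2 among them, Igha differed by -0.59 (adjusted p = 0.849), Igkc by 0.34 (adjusted p = 0.830) and Ighg2b by 1.42 (adjusted p = 0.330). Against vehicles within batch 1, Igha was 1.86 higher (adjusted p = 0.548) and Igkc 1.45 (adjusted p = 0.361). Batch 2 held a single vehicle, so it gave no such value.

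**Figure D2:**
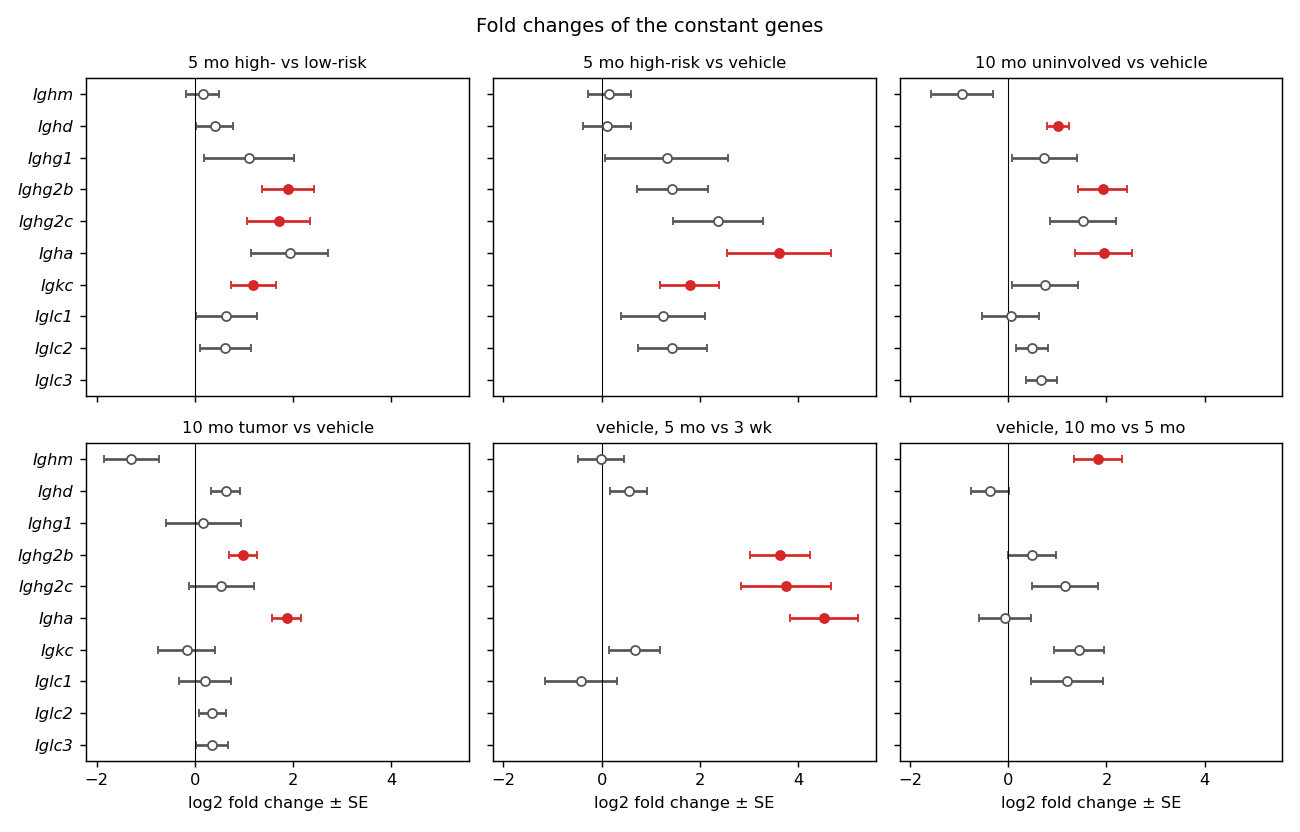
Log2 difference of each constant gene tested in 6 comparisons, with bars of 1 SE. Red filled points have an adjusted p under 0.05 by edgeR. Igha, Ighg2b and Ighg2c stand to the right in the age comparison of vehicles and in the comparisons of high-risk liver, while Ighm lies near 0 at 5 months.

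At 10 months, none of the 10 constant genes tested passed between low-risk livers and vehicles, and edgeR called 0 of 16338 genes (4.21% had an unadjusted p under 0.05). The log2 difference was 0.74 for Igha (SE 0.58), 0.01 for Igkc (SE 0.68) and -0.29 for Ighm (SE 0.62). The vehicles include mouse 5, at 66.07 CPM of Igkc and 200.4 CPM of Ighm. The other vehicles reached at most 17.76 and 61.14 CPM. Igha was at 2.35, 4.84, 6.33, 8.69 and 16.3 CPM in the low-risk livers and between 2.88 and 5.44 CPM in vehicles.

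Uninvolved high-risk livers of 10 months had more IgD, IgG2b and IgA RNA than vehicles. Ighd was at 1.78, 1.81, 2.22, 3.25 and 3.35 CPM in the 5 uninvolved samples and between 0.547 and 1.19 CPM in 6 vehicles, with no overlap. Igha was at 4.69, 7.53, 12.7, 19.3 and 57.0 CPM, and in vehicles between 2.88 and 5.44 CPM. The sum of mice 3 and 6 had the highest Igha, and mouse 7 the lowest, within the vehicle range. Ighg2b was at 0.690, 4.49, 7.59, 8.93 and 13.6 CPM, against 1.16 to 1.99 CPM in vehicles, so that 4 of 5 samples were above every vehicle and mouse 7 was lowest of all. Ighd rose by 1.01 (SE 0.23, adjusted p = 0.0012), Ighg2b by 1.92 (SE 0.49, adjusted p = 0.00366) and Igha by 1.94 (SE 0.58, adjusted p = 0.00989, edgeR). These were 3 of 10 constant genes tested, where 31.2% of all genes were called higher. The median log2 difference was 0.74 over the constant genes and 0.06 over all genes. Without the sum of mice 3 and 6, Igha was 1.02 higher with an adjusted p of 0.0579 by edgeR. When the tumor-labelled vehicle library, a technically deviating one, was added to the vehicles, Ighd was 0.68 higher (adjusted p = 0.0911, edgeR).

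Other constant genes were not called against vehicles. Iglc3 was 0.67 higher there, with all 5 uninvolved samples above all 6 vehicles, as for 27.3% of all genes in that direction. Ighg2c was 1.52 higher (SE 0.67, adjusted p = 0.0621), and Igkc 0.74 higher (SE 0.67, adjusted p = 0.355, edgeR), with 7.80 to 65.3 CPM in uninvolved livers and 4.97 to 66.1 CPM in vehicles. Without vehicle mouse 5, the highest of its group in Igkc and Ighm, Igkc was 1.75 higher (adjusted p = 0.00939, edgeR). Ighm differed by -0.94 (SE 0.63, adjusted p = 0.213), with a median of 44.7 CPM against 36.7 CPM in vehicles, whose mean of 61.5 CPM rests on mouse 5. Against low-risk livers, Iglc3, a lambda gene, rose by 0.94 (SE 0.34, adjusted p = 0.0261), Ighg2b by 1.43 (SE 0.51, adjusted p = 0.0272) and Ighd by 0.64 (SE 0.24, adjusted p = 0.0304, edgeR), where 27.7% of all genes were called higher. Iglc3 was at 0.603, 0.643, 0.662, 0.673 and 1.30 CPM in uninvolved livers, above all 5 low-risk livers (0.143 to 0.530 CPM). Igha was 1.201 higher there (adjusted p = 0.100). Leaving out low-risk mouse 8 ended all 3 calls: Iglc3 was then 0.75 higher, Ighg2b 1.23 and Ighd 0.53, with adjusted p of 0.0664 to 0.084. Single calls were also lost without low-risk mouse 2 (Iglc3 0.82, Ighd 0.60) or 9 (Iglc3 0.90, Ighg2b 1.28), uninvolved mouse 1 (Iglc3 0.76, Ighd 0.60) or the sum of mice 3 and 6 (Ighg2b 1.02, Ighd 0.49), and with no filter on low counts all 3 had adjusted p above the threshold, from 0.0691 to 0.0806. A fit of all 10-month groups gave Ighd an adjusted p of 0.0724.

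Tumors had more IgA RNA than vehicle liver in every sample. Igha ran from 7.75 to 32.8 CPM in 7 tumors, with a median of 16.2, all above the highest vehicle at 5.44 CPM. Igha rose by 1.87 on the log2 scale (SE 0.29, adjusted p = 0.000192) and Ighg2b by 0.98 (SE 0.28, adjusted p = 0.0101, edgeR), 2 of 10 constant genes, where 24.8% of all genes were called higher. Ighg2b ran from 1.46 to 6.98 CPM, and 6 of 7 tumors were above every vehicle. A fit of all 10-month groups gave Ighg2b an adjusted p of 0.0836. Ighm was lower by 1.30 without being called (log2 difference -1.30, SE 0.56, adjusted p = 0.0731), and by 0.44 without vehicle mouse 5 (log2 difference -0.44, adjusted p = 0.391). It was called without vehicle mouse 4 or tumor 6 (-1.48 and -1.59, adjusted p = 0.0347 and 0.0368, edgeR), and Ighd was 0.63 higher (adjusted p = 0.093). Groups that do not overlap with the first group higher were 22.3% of all genes in that comparison, 27.3% between uninvolved and vehicle liver and 23.2% between uninvolved and low-risk liver.

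Between tumors and uninvolved livers, none of 10 constant genes and 8 V genes tested passed, where 7.55% of all genes were called higher and 10.5% lower. Igkc differed by -0.93 (SE 0.43, p = 0.0467, adjusted p = 0.137, edgeR), with 7.97 to 35.0 CPM in tumors and 7.80 to 65.3 CPM in uninvolved livers. All 7 tumors were below the uninvolved mean in Igkc, Ighg2b and Ighg2c. The log2 difference of Igha was -0.09 (SE 0.53). Tumor and liver of a mouse share its number, and with the mouse as a block over 6 pairs Igkc fell by 0.85 on the log2 scale (SE 0.22, adjusted p = 0.0391, edgeR). Without mice 3 and 6, whose liver libraries were summed elsewhere, 4 pairs gave -0.59 (adjusted p = 0.117). Mouse 7 was the lowest or among the lowest in both tissues: its uninvolved liver had 0.690 CPM of Ighg2b and its tumor 1.46 CPM.

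The difference between risk groups was set against itself at both ages with an interaction term. No immunoglobulin gene passed, and edgeR called 0.448% of 16084 genes. The log2 change of the difference was -0.84 for Igha (SE 1.35), -0.52 for Igkc (SE 0.85) and -0.47 for Ighg2b (SE 0.95), and every adjusted p was at least 0.657.

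The share of switched classes moved with these levels. Among heavy-chain constant genes, per kb of exon, the IgG, IgA and IgE genes made up a median of 0.615% in 3-week vehicles (0.117 to 12.3%) and 3.85% in 3-week TBT livers (0 to 10.4%), ranges that overlapped. At 5 months the median was 15.4% in vehicles (9.17 to 45.8%), 13.1% in low-risk livers (2.76 to 85.6%) and 42.2% in high-risk livers (18.7 to 71.1%). At 10 months it was 13.3% in vehicles (5.54 to 28.0%), 14.4% in low-risk livers (13.05 to 21.7%), 32.5% in uninvolved livers (17.6 to 66.4%) and 43.1% in tumors (21.6 to 53.6%). The ranges of high-risk and control livers overlapped at both ages. Lambda genes were a median of 20.4% of light-chain constant RNA per kb in 3-week vehicles, 10.4% in 5-month vehicles, 10.4% in 5-month low-risk livers and 13.2% in high-risk livers. At 10 months this share was 14.3% in vehicles (6.25 to 22.9%), 7.81% in low-risk livers (6.14 to 21.3%), 7.20% in uninvolved livers (6.46 to 16.3%) and 12.8% in tumors (8.27 to 23.02%), and the ranges overlapped.

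The count of Igkc was also set against that of Ighm, a ratio chosen after its values were seen and given as a description. It ran from 0.681 to 1.47 in 5-month high-risk livers, with a median of 0.831. It ran from 0.219 to 0.728 in 5-month vehicles, and its median was 0.359 in low-risk livers, where mouse 2 reached 3.46. At 10 months it ran from 0.114 to 0.527 in vehicles, 0.320 to 0.423 in low-risk livers, 0.600 to 2.32 in uninvolved livers and 0.471 to 1.01 in tumors. Uninvolved livers did not overlap with vehicle or low-risk livers in this ratio, and tumors overlapped with vehicles.

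**Figure D3:**
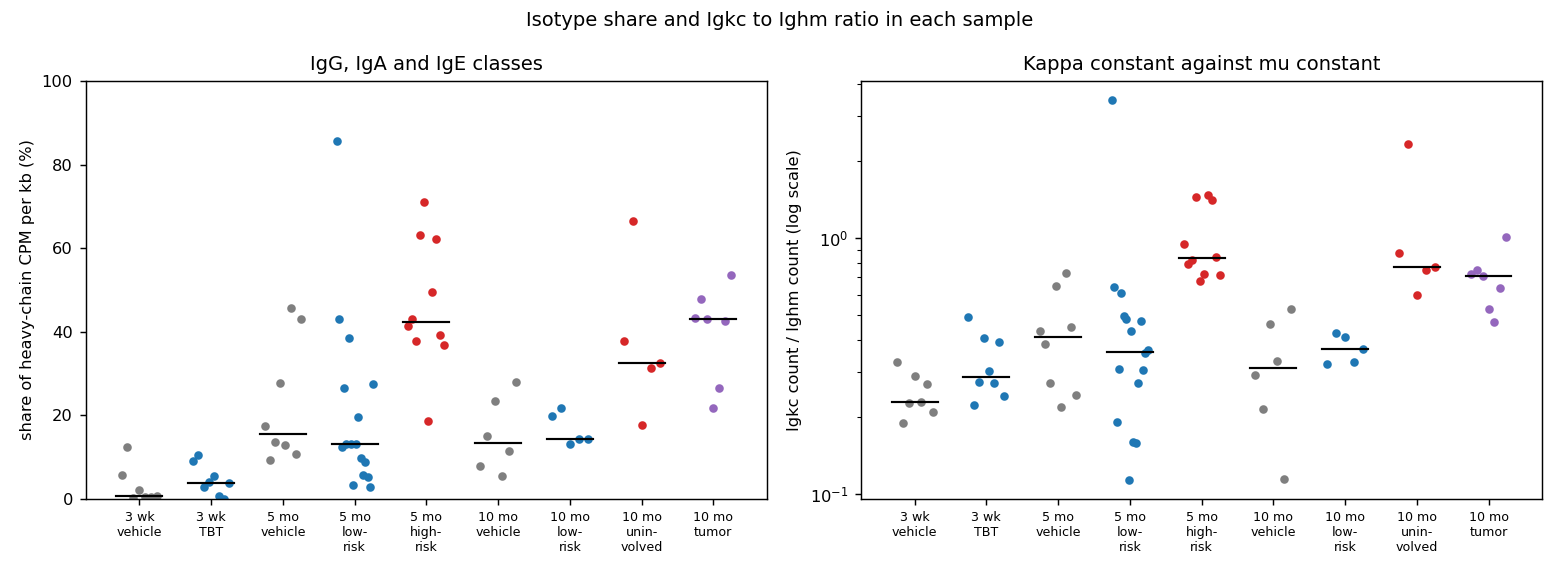
Left, percent of heavy-chain constant RNA (CPM per kb of exon) from the IgG, IgA and IgE genes in each sample. Right, count of Igkc divided by count of Ighm on a log axis, with group medians as bars. High-risk livers of 5 months had ratios from 0.681 to 1.47, and the 10-month vehicles from 0.114 to 0.527.

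The V genes were sparse. The 218 genes shared 20577 counts over all libraries, 6 were never counted and 148 were counted in at least 10 libraries. The 113 Ighv genes span chr12:113578504-116000461, the 100 Igkv genes chr6:67555497-70704177 and the 3 Iglv genes chr16:19085017-19260859. The other two, Gm43218 and Gm42543, lie on chromosome 6. Between 1 and 8 V genes had enough counts to be tested in the comparisons that tested any, so the repertoire is described by sums and shares.

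Summed V RNA was highest in the groups with the most constant-gene RNA, whose medians were 114 CPM in uninvolved livers, 84.3 in tumors, 82.3 in 5-month high-risk livers and 74.0 in 10-month low-risk livers. The median of the V sum was 4.27 CPM in 3-week vehicles (1.46 to 7.78) and 1.99 CPM in 3-week TBT livers (1.43 to 4.98). At 5 months it was 4.12 CPM in vehicles (1.61 to 37.4), 6.65 CPM in low-risk livers (1.94 to 74.5) and 15.3 CPM in high-risk livers (7.47 to 41.6). The highest vehicle was mouse 9, whose library had 2.83 M counts, the highest low-risk liver mouse 2 and the highest high-risk liver mouse 10. Vehicle mouse 9 and high-risk mouse 10 were technically deviating libraries, with 38206 and 39669 genes detected. The part of this in their V sums was not tested. At 10 months the medians were 7.09 CPM in vehicles (3.75 to 47.8, mouse 5 highest), 13.2 CPM in low-risk livers (8.90 to 22.6), 21.4 CPM in uninvolved livers (4.49 to 42.0) and 17.8 CPM in tumors (6.89 to 23.6). All groups overlapped with the vehicles of their age. Heavy and kappa V genes contributed in like amounts: median Ighv was 7.85 CPM and median Igkv 6.22 CPM in 5-month high-risk livers, and the 3 Iglv genes added 1.57 CPM.

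**Figure D4:**
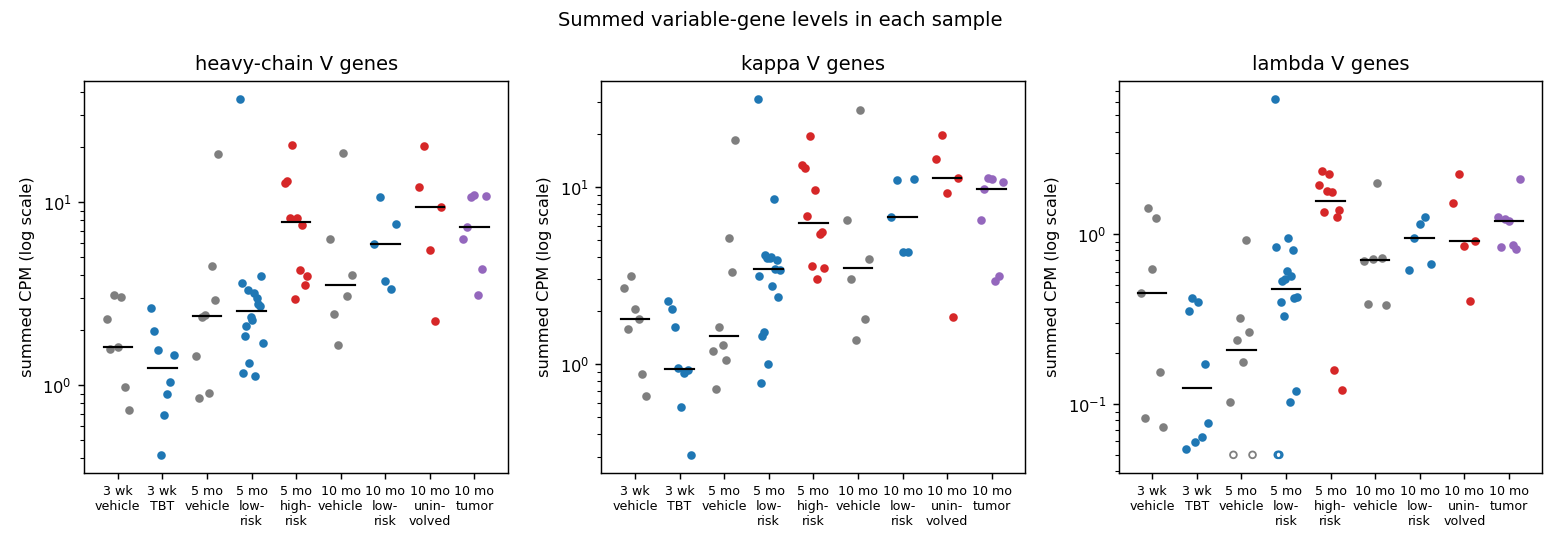
Summed CPM of the heavy (113 genes), kappa (100 genes) and lambda (3 genes) V genes in each sample, on a log axis, with group medians as bars. Vehicle mouse 5 of 10 months stands above the rest of its group in all 3 panels.

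A small set of V genes led. Ighv6-3 held 1210 counts, 5.88% of all V counts, and was seen in 53 of 73 samples. Of these, 500 came from the sum of uninvolved mice 3 and 6, without which Igkv3-2 (800) and Iglv1 (779) were ahead of Ighv6-3 (710). Iglv1 held 904 (4.39%, 60 samples), Igkv3-2 850 (4.13%) and Igkv5-39 699 (3.40%), and the 10 largest held 30.4% together. Ighv6-3 and Iglv1 were each the largest V gene in 11 samples, and Igkv3-2 and Igkv5-39 in 8 each. By group mean, Iglv1 led in 3-week vehicles at 0.314 ± 0.335 CPM (SD, n = 7), with Iglv2 the third, and Igkv4-91 led in 3-week TBT livers at 0.128 ± 0.188 CPM (SD, n = 8), ahead of Iglv1 and Ighv7-1. Igkv5-39 led in 5-month vehicles at 0.388 ± 0.448 CPM (SD, n = 8). It was followed by Igkv2-109, counted in 1 vehicle alone, and Ighv6-3. Iglv1, Ighv5-17 and Igkv3-2 led in low-risk livers, with Ighv5-17 at 5.04 CPM in a single mouse. High-risk livers were led by Ighv6-3 at 1.02 ± 0.649 CPM (SD, n = 10), counted in 10 of 10 livers, Iglv1 at 0.988 ± 0.676 CPM (SD, n = 10) and Ighv6-6.

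At 10 months, Igkv3-4 led in vehicles at 1.69 ± 3.93 CPM (SD, n = 6), because mouse 5 had 9.71 CPM and the median was 0.0744 CPM; Igkv3-2 and Ighv6-6 followed. Igkv3-2 led in low-risk livers at 1.03 ± 0.998 CPM (SD, n = 5), followed by Ighv6-3 and Igkv5-39. Ighv6-3 led in uninvolved livers at 1.79 ± 2.68 CPM (SD, n = 5), with 6.56 CPM in the sum of mice 3 and 6 and a median of 0.493 CPM. In tumors Igkv3-2, Ighv6-3 and Iglv1 were close, at 0.937 ± 1.14, 0.916 ± 0.483 and 0.795 ± 0.319 CPM (SD, n = 7). Without the sample that held most of it, the leading gene lost its place in 8 of the 9 groups of the study, a check chosen after the values were seen. Igkv3-4 then had a mean of 0.0881 CPM in 10-month vehicles, and Ighv6-3 one of 0.599 CPM in uninvolved livers. Igkv3-2 had 0.576 CPM in tumors, behind Ighv6-3 at 0.813 CPM, and Iglv1 0.252 CPM in 5-month low-risk livers. Only Iglv1 in 3-week vehicles kept the lead.

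A V gene passed the test in 1 comparison. Iglv1 was at 0.988 ± 0.676 CPM (SD, n = 10) in 5-month high-risk livers and 0.125 ± 0.228 CPM (SD, n = 8) in vehicles, and it rose by 3.19 on the log2 scale (SE 0.98, adjusted p = 0.0236, edgeR). It was 1 of 2 V genes tested there. Without vehicle mouse 8 the adjusted p was 0.0601, within batch 1 it was 0.503, and with no filter on low counts 0.0787 (log2 differences 3.04, 2.37 and 3.22). Its difference from low-risk livers was 1.04 (SE 0.67, adjusted p = 0.224), and that of low-risk livers from vehicles 2.15 (SE 0.87, adjusted p = 0.674), or 0.82 without low-risk mouse 2 (adjusted p = 0.959). Ighv6-3 was 1.52 higher in high-risk than in low-risk livers (SE 0.68, adjusted p = 0.0729) and 2.01 higher in uninvolved livers than in vehicles (SE 0.89, adjusted p = 0.0653, edgeR). Without the sum of mice 3 and 6 the latter was 0.34 (adjusted p = 0.705), and without vehicle mouse 5 or uninvolved mouse 5 or 7 it was 2.24 to 2.79 and called (adjusted p of 0.0219 to 0.0488). Without 5-month low-risk mouse 8 the former was 2.36 (adjusted p = 0.00832). Iglv1 and Iglv2 differ at few bases, so the split of counts between them is uncertain.

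Diversity was compared at equal depth, since samples held from 15 to 3201 V counts. Drawn down to 50 V counts, 13 samples being shallower and left out, a sample was expected to show a median of 30.1 V genes in 3-week vehicles (n = 4) and 29.3 in 3-week TBT livers (n = 3). The medians were 31.97 in 5-month vehicles (n = 7), 26.03 in low-risk livers (n = 12) and 29.0 in high-risk livers (n = 10). Low-risk livers ran from 27.9 to 32.6 in batch 1 and from 22.5 to 26.9 in batch 2, and the batch 2 vehicle had 23.5. High-risk livers ran from 19.9 to 34.0 in batch 1 and from 21.2 to 39.4 in batch 2. The part of batch in these medians was not tested. They were 31.5 in 10-month vehicles (n = 6), 30.0 in low-risk livers (n = 5), 32.7 in uninvolved livers (n = 5) and 32.4 in tumors (n = 7). The ranges of the groups of each age overlapped. Before thinning, the medians of V genes detected ran from 22 in 3-week TBT livers to 131 in uninvolved livers, in the order of their V counts for those 2 groups.

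Single V genes took a large share in a few samples. Among samples with at least 100 V counts, Igkv3-2 took 38 of 170 V counts (22.4%) in 5-month low-risk mouse 20, and Igkv3-4 took 271 of 1334 (20.3%) in 10-month vehicle mouse 5, where Ighv6-6 came next with 122. In the sum of uninvolved mice 3 and 6, Ighv6-3 took 500 of 3201 (15.6%) and Igkv2-112 255. Iglv1 took 21 of 110 (19.1%) in 10-month vehicle mouse 4, and Ighv6-3 20 of 106 (18.9%) in 5-month low-risk mouse 8. The median share of the largest V gene was 7.85% in 5-month high-risk livers, 16.2% in low-risk livers and 9.60% in vehicles. These shares are not at equal depth: the highest, 60% for Ighv1-56 in low-risk mouse 5, rested on 15 V counts. Leaving the largest V gene out of each sample lowered the median V sums by 7.25 to 11.7%.

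**Figure D5:**
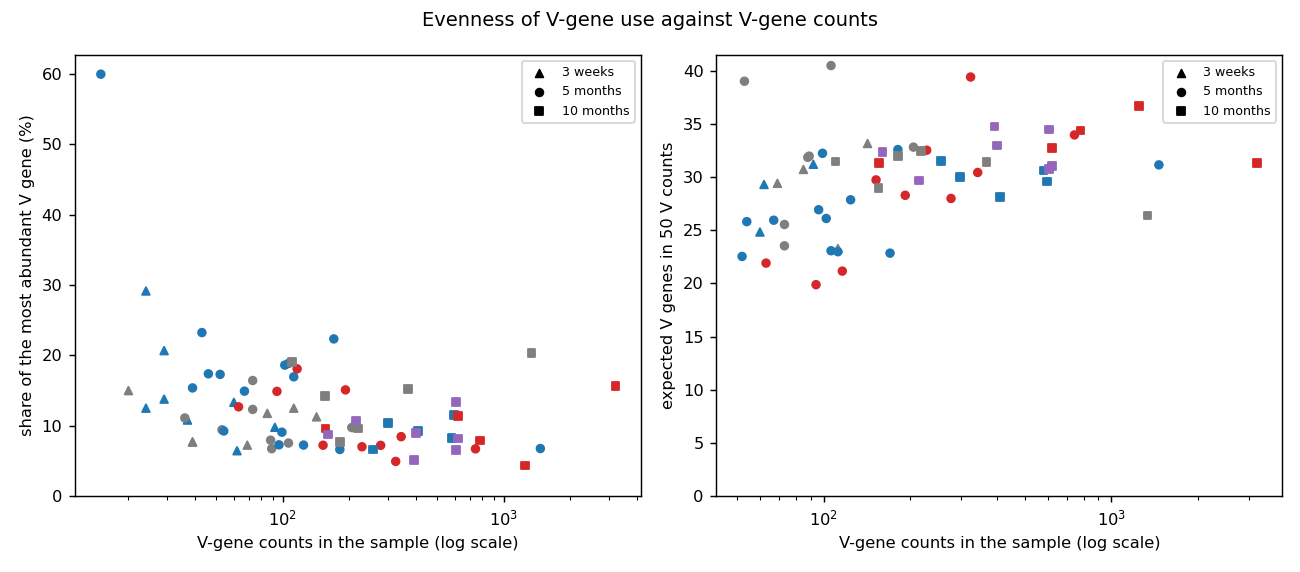
Left, percent of V counts taken by the largest V gene against the V counts of the sample on a log axis. Right, V genes expected in 50 V counts, by group. Triangles are 3 weeks, circles 5 months and squares 10 months; grey is vehicle, blue TBT or low-risk, red high-risk or uninvolved and purple tumor. Vehicle mouse 5 of 10 months lies apart on the left at 20.3% of 1334 V counts.

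Genes that make, carry or accompany antibodies were read from lists. Jchain, the joining chain, rose at 5 months, by 1.39 in high-risk against low-risk livers (SE 0.53, adjusted p = 0.0348) and by 1.96 against vehicles (SE 0.68, adjusted p = 0.0445, edgeR). Its median was 5.43 CPM in high-risk livers, 1.35 in low-risk livers and 2.01 in vehicles, and low-risk mouse 2 had 26.6 CPM. Jchain also rose in vehicles from 3 weeks to 5 months, by 1.69 (SE 0.56, adjusted p = 0.0309). The Jchain call against low-risk livers was lost without high-risk mouse 1, 10 or 13 or low-risk mouse 8, 11, 14, 18, 19 or 23 (1.08 to 1.33, adjusted p of 0.0504 to 0.0873), and within batch 1 the difference was -0.0306. That against vehicles was lost without high-risk mouse 1, 4, 10 or 13 or any of vehicle mice 1 to 6 (1.64 to 2.01, adjusted p of 0.0505 to 0.0876), and that with age without 5-month mouse 3 or 6 or 3-week mouse 4, 5 or 6 (1.51 to 1.67, adjusted p of 0.0515 to 0.0653). With no filter on low counts, all 3 had adjusted p of 0.0967 to 0.160. Uninvolved livers and tumors of 10 months differed from vehicles by 0.07 and 0.13 in Jchain, neither called. Among these vehicles mouse 5 had 15.48 CPM of Jchain and the others 1.656 to 5.18 CPM. No Jchain difference without mouse 5 is given here. Pigr, the receptor that carries IgA into bile, rose by 2.802 with age in vehicles (SE 0.18, adjusted p = 3.841e-10), from 194 to 1195 CPM on average. It fell by 1.499 on the log2 scale in 5-month high-risk against low-risk livers (SE 0.33, adjusted p = 0.000462) and by 1.27 against vehicles (SE 0.39, adjusted p = 0.0225), and by 0.45 in tumors against 10-month vehicles (SE 0.10, adjusted p = 0.00158, edgeR). Against 5-month vehicles the Pigr difference was -1.10 without vehicle mouse 8 (adjusted p = 0.106) and -1.19 in a fit of the 2 groups (adjusted p = 0.128). Within batch 1 it was -0.85 (adjusted p = 0.171), and with no filter on low counts -1.28 (adjusted p = 0.112).

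Some B cell genes were called as well. Of 13 mature B cell genes tested, 4 were called higher in 5-month high-risk against low-risk livers (Cd22 by 1.25, Spib by 1.03, Cr2 by 1.12 and Fcrla by 0.999) and 1 against vehicles (Cd22 by 1.01, adjusted p = 0.0199, edgeR). Of all genes tested, 20.3% and 8.47% were called higher in these comparisons. Cd79a and Ms4a1, which mark B cells, differed by 0.69 and 0.46 from low-risk livers, neither called. The summed mature B cell genes ran from 22.8 to 39.7 CPM in high-risk livers and 6.61 to 25.2 CPM in low-risk livers. In uninvolved livers 8 of 15 were called higher than in vehicles, where 31.2% of all genes were, among them Cd22 (1.06), Cd37 (0.88), Fcer2a, the low-affinity IgE receptor (1.12), and Cd79a (0.94, adjusted p = 0.012). Ms4a1 was not called there, at -0.05. With the tumor-labelled vehicle library among the vehicles, Cd22 and Cd79a differed by 0.71 each (adjusted p = 0.0629 and 0.0984, edgeR). From 3 weeks to 5 months 4 of 14 fell in vehicles, where 12.3% of all genes were called lower, Ms4a1 by 1.58 on the log2 scale (SE 0.45, adjusted p = 0.0127) among them, while Igha, Ighg2b and Ighg2c rose.

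Plasma cell genes went both ways. Against low-risk livers at 5 months, 4 of 11 were called higher (Jchain, Tnfrsf13b, Irf4 and Prdm1, the last a regulator of secreting cells, by 1.34) and 3 lower (Creld2, Derl3 and Xbp1). The lower ones belong to the stress response of the endoplasmic reticulum, which hepatocytes use too. Which cells the higher or the lower genes came from was not tested. In uninvolved livers 5 of 12 were higher than in vehicles, among them Prdm1 (1.32) and Tnfrsf13b (1.18), and 3 lower (Creld2, Xbp1 and Txndc5). All genes tested were called higher in 20.3% and lower in 18.5% of cases in the first of these comparisons, and in 31.2% and 26.5% in the second. Mzb1 had too few counts to be tested. Factors that draw or sustain B cells changed as well: Tnfsf13b, the survival factor BAFF, rose by 1.22 in high-risk against low-risk livers (adjusted p = 0.00418) and by 1.36 in uninvolved liver against vehicle (adjusted p = 0.000245, edgeR). Among attractants and survival factors, 5 of 8 passed as higher and 1 as lower at 5 months against low-risk livers, and 6 of 9 as higher and 1 as lower in uninvolved liver. The B cell attractant Cxcl13 fell by 1.78 and 3.04 on the log2 scale in the same comparisons (adjusted p = 0.0275 and 1.41e-05).

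Of 3 genes of B precursors tested, Dntt was not called and Il7r and Ebf1 were higher in both comparisons, by 1.56 and 1.38 in 5-month high-risk against low-risk livers and by 1.82 and 1.67 in uninvolved liver against vehicle, while the recombinase genes Rag1 and Rag2 were not among those tested. Of germinal center genes, 2 of 4 were higher at 5 months (Gcsam by 1.98, S1pr2 by 0.55) and 0 of 3 in uninvolved livers. Among 8 genes of immunoglobulin transport and Fc receptors, 2 rose (Fcer1g, Fcgr1) and 3 fell (Pigr, Fcgrt and Fcgr2b) at 5 months. In uninvolved livers 3 rose and 1 fell, and Pigr was not called. Beside these lists, all genes tested were called higher in 20.3% and lower in 18.5% of cases at 5 months. The shares were 31.2% and 26.5% in uninvolved livers. Fcgrt, which recycles IgG, fell by 0.68 and 0.82 on the log2 scale in these comparisons (adjusted p = 0.00106 and 5.881e-06, edgeR).

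Markers of other cell types moved with the immunoglobulin genes, and their part in these differences was not tested. In 5-month high-risk against low-risk livers, 6 of 9 T and NK cell genes tested were higher and 1 lower, 4 of 5 duct genes higher and 4 of 6 hepatocyte genes lower. All genes tested were called higher there in 20.3% and lower in 18.5% of cases. Of 8 macrophage genes, 4 were higher and 2 lower, of 3 neutrophil genes none was called, and of 6 erythroid genes 1 was lower. The summed T and NK genes ran from 6.75 to 18.9 CPM in high-risk and from 2.94 to 11.2 CPM in low-risk livers, and the summed duct genes from 32.6 to 442 and from 25.1 to 223 CPM. In uninvolved liver against vehicle, 9 of 10 T and NK cell genes and 5 of 5 duct genes were higher, and 4 of 6 hepatocyte genes lower and 1 higher. The shares over all genes were 31.2% higher and 26.5% lower. In tumors against vehicles, 7 of 9 T and NK cell genes and 5 of 5 duct genes were higher. Lower were 5 of 6 hepatocyte genes and 4 of 5 erythroid genes, and of 8 macrophage genes 3 were higher and 2 lower. There 24.8% of all genes were called higher and 21% lower. In vehicles from 3 weeks to 5 months, 5 of 6 erythroid genes were lower and 1 higher, 4 of 8 macrophage genes lower and 2 higher, and none of 8 T and NK cell genes was called. With age, 11.9% of all genes were called higher and 12.3% lower.

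Within groups, the gene most like Igkc was Jchain. Over 72 samples and 14977 genes outside the immunoglobulin classes, deviations from the group mean of log2(CPM + 0.5) correlated at a Spearman rho of 0.82 between Igkc and Jchain. The next were Ddx59 (0.49), Ubl5 (0.48), Gpn3 (0.48), AB124611 (0.48), Faap24 (0.47), Golm1, S100a9, Kcnab2 and Taf12 (0.46 each). The samples share their libraries' depth, and these values are a description. The B cell genes Ms4a1 and Cd79a came at 0.33 and 0.16. Igkc went with Ighm (0.72) and Ighg2b (0.59) more than with Igha (0.24), and Igha with Ighm at 0.05. The genes most like Igha were F2rl1 (0.57) and A130010J15Rik (0.55), with Jchain at 0.29.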

How the data were processed

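Per the labels' protocols, RNA came from RNeasy columns with a DNase step, and TruSeq libraries of total RNA kept the strand. The authors deposited a single table of whole-number counts per gene for 75 libraries, made with Trim Galore, HISAT2 and featureCounts on mm10, per the submitters' processing notes, and adjusted with ComBat-seq, per the file name. The settings of that adjustment and the strand setting are not given in the sources used here. The adjustment can change group differences at 5 months, where batch and risk are unevenly mixed.

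Of 55536 gene identifiers, 55450 were found in GENCODE M21 (GRCm38), from which positions, lengths and sequences were taken. Counts of 75 libraries became 73 samples. Groups follow the labels, and each title carries a mouse number. edgeR 4.0.16 in R 4.3.3 was fitted to the whole table (TMM scaling, filterByExpr, robust quasi-likelihood F tests), with Benjamini-Hochberg adjustment over all genes tested and a threshold of 0.05. Groups of 5 months shared a fit with batch as covariate. SEs are those implied by the F statistic. CPM used total counts, and CPM per kb the union of exons. V genes at equal depth are the expected number in 50 V counts. Sums, shares and ratios over members have no test. The fit of 5-month high-risk against low-risk livers was tested on simulated counts. These had the same spread for every gene, no batch effect and no outlying mouse. That test therefore does not cover genes as uneven between mice as these.

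The gene classes described, the marker lists and the comparisons were picked with earlier results of these data known. Every constant gene is given by its total count, but the text gives no fold change for Ighg1, Ighg3, Ighe and Iglc4. Up to 3 called V genes per direction and comparison are named, at a mean of 1 CPM or more. So are the 3 V genes of highest mean per group and the largest V gene of samples with the largest share. The rule also takes up to 4 called genes per list and comparison, and Jchain, Mzb1, Cd79a, Ms4a1 and Pigr. A further gene of that rule is not reported here. Iglv1 was named below that mean as the single V gene called, and genes of list counts were named in part. Of those 5, Jchain, Cd79a, Ms4a1 and Pigr are given for some comparisons only. Promoter windows of V genes were not used here.

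As alternatives, each sample was left out in turn, as were all libraries with fewer than 5 M counts, more than 35000 detected genes or a mitochondrial share over 10%. Other fits used DESeq2 1.42.0, RLE scaling, unfiltered counts, one batch alone or none as a term, other sets of groups, replicate blocks, or another treatment of summed and doubtful libraries. Tumor and uninvolved liver were paired by the mouse number of their titles, and the deviations of 6 pairs correlated at -0.274 to 0.648.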

Additional observations from a re-analysis of the deposited data

Results flagged for a closer look

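Among 127 sets of samples examined, 25 held a sample far outside the rest of its group. The rate of about 1 in 20 set for chance is nominal. Many sets share a mouse, and in some every other sample was at 0, so no excess is read from the count. Vehicle mouse 5 of 10 months stood out in 6 measures: Ighm at 200.4 CPM, Igkc at 66.07, Jchain at 15.48, and summed Ighv, Igkv and Iglv genes at 18.6, 27.19 and 2.006 CPM. High-risk mouse 1 of 5 months stood out for Ighg2b at 18.25 and Ighg2c at 17.6 CPM. Among 5-month vehicles, mouse 6 had 13.35 CPM of Igha and 0.9244 CPM of Iglv genes, and mouse 9, the shallowest library, had 2.825 CPM of Ighg3, 1.059 of Ighe and 18.36 each of summed Ighv and Igkv genes. The sum of uninvolved mice 3 and 6 had 56.96 CPM of Igha, and uninvolved mouse 1 had 1.301 CPM of Iglc3. Tumor 12 had 3.733 CPM of Iglc1 and 2.1 CPM of Iglv genes.

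The other outlying values were low. At 3 weeks, vehicle mouse 1 had 0.3832 CPM of Ighg2b, 0.3193 of Ighg3 and 0.1916 of Ighe, vehicle mouse 2 had 0.4144 CPM of Ighg2c, and TBT mouse 1 had 0.2707 CPM of Ighg2c. High-risk mouse 10 of 5 months had 0.3853 CPM of Ighe and low-risk mouse 4 of 10 months 0.1135 CPM.

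The 10-month vehicle library labelled as a tumor was in no comparison and was above every 10-month vehicle liver in 5 constant genes. It had 4.779 CPM of Ighg2c, 2.52 of Ighg2b, 8.602 of Igha, 3.563 of Ighd and 0.6951 of Iglc3.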

How the results depend on the processing

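Low counts limit the V genes. Alternative values numbered 2413, for 116 pairs of a gene and a comparison, with B cell, plasma cell and transport genes among them. Of these values, 2085 kept direction and call, 297 lost the call and 28 gained it. A value of the same direction without an adjusted p was counted as kept, and genes absent from an alternative fit gave no value. The 3 that changed sign were Igha and Jchain in 5-month high-risk against low-risk livers within batch 1 (-0.59 and -0.0306, adjusted p = 0.849 and 0.991) and Ighv6-3 in uninvolved liver against vehicle with the title number as a replicate block (-0.38, adjusted p = 0.610, edgeR); the cause was not tested. At 5 months, high-risk against low-risk, the number of immunoglobulin genes called was 3; it was 15 with no filter on low counts, 0 within batch 1 and 0 to 6 leaving out single livers (0 without high-risk mouse 1, 6 without low-risk mouse 2). Against vehicles it was 3; it was 0 within batch 1, 1 in a fit of the 2 groups, 0 with the number as a block, and 2 to 4 leaving out single livers. For uninvolved liver against vehicle it was 3; it was 15 with no filter, 5 in a fit of all 10-month groups, 6 with libraries 3 and 6 separate, 1 with the number as a block, and 2 to 6 leaving out single samples (6 without vehicle mouse 5 or uninvolved mouse 7, 5 without uninvolved mouse 5). Against low-risk liver it was 3; it was 10 with no filter, 1 without the sum of mice 3 and 6, and 0 to 4 leaving out single samples (0 without low-risk mouse 8, 1 without low-risk mouse 2 or 9 or uninvolved mouse 1). For tumor against uninvolved liver it was 0; with the mouse as a block it was 1 over 6 pairs, and 0 to 2 leaving out single samples (2 without uninvolved mouse 7). For tumor against vehicle it was 2, 6 with no filter, and 2 to 3 leaving out single samples. In vehicles from 5 to 10 months it was 1; it was 0 with no filter, 2 with DESeq2, and 0 to 2 leaving out single samples (0 without 10-month mouse 5, 2 without mouse 6). In low-risk livers across ages it was 0, and 1 with DESeq2. It was 0 under every alternative run for the 3-week, 5-month low-risk, 10-month low-risk and interaction comparisons, and 3 in all alternatives run for vehicles from 3 weeks to 5 months. Samples that share a title number correlated in their deviations at -0.189 to 0.453 across groups. Those numbers name samples only, and a block on them left no call at 5 months, where Pigr against vehicles was -0.43 (adjusted p = 0.799).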
